A study of Mus musculus with 4 samples.

Results

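Lung CD4 T cells without Foxp3 were 657 of the 19798 barcodes in the 2 lung matrices, with 272 in the TNF- library and 385 in the TNF+ library. They were selected by their transcripts, counted as unique molecular identifiers (UMIs), in barcodes that held 500 or more UMIs and at most 20% mitochondrial UMIs. A member held at least 2 UMIs summed over Cd3d, Cd3e and Cd3g and at least 1 of Cd4. It held no UMI of Cd8a, Cd8b1, Foxp3, Trdc, Cd79a or Csf1r. These values chose the cells and are not findings.

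The study profiled lung and synovium of TNF-Tg mice, a chronic model of inflammatory arthritis with pulmonary hypertension, by droplet 3′ single-cell RNA sequencing. TNF+ mice carried a human TNF transgene, and TNF- mice were littermates without it. All were 4-month-old females on a C57BL/6 background. Lung tissue of 3 to 5 mice per genotype was pooled, dissociated mechanically and with enzymes, cleared of red cells and sorted for viable cells. Each genotype was thus 1 library. The differences below have no replicate check, and every interval covers counting error only. The human transgene was not in the reference, so Tnf below stands for reads assigned to the mouse gene. The whole organ was dissociated, and cells in the blood vessels cannot be told apart from cells in the tissue.

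CD4 T cells recognise peptides on class II molecules and direct other immune cells through cytokines and membrane-bound ligands. Naive cells circulate between blood and lymph nodes, guided by CCR7 and S1PR1 under control of the transcription factor KLF2. After activation they lose this programme, gain adhesion molecules and inflammatory chemokine receptors, and can take up helper fates named Th1, Th2, Th17 and Tfh. Activated CD4 T cells also express several ligands of the TNF family, among them TNF itself, CD40 ligand and RANKL.

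The lung libraries held 96120328 and 155989523 UMIs in 8555 (TNF-) and 11243 (TNF+) barcodes, of which 8342 and 11085 passed the filters. T cells, defined by the Cd3 sum without Cd79a or Csf1r, were 10.6% and 9.64% of the kept barcodes. Macrophages and other Csf1r+ cells were 13.1% of the TNF- library and 40.9% of the TNF+ library. Lyz2, a macrophage gene, had a UMI in 57.7% of TNF- and 100% of TNF+ members. The same was seen in B cells (Cd79a+ barcodes without Cd3 or Csf1r UMIs), at 54.4% and 99.8%. B cells serve below as cells that should lack T cell genes, at median depths of 7519 and 7633 UMIs against 9168.5 and 9393 UMIs in the members. They are no measure of free RNA alone, since the B cell gate held mixed barcodes too. Sftpc, a surfactant gene, was at 12249 CPM (UMIs scaled to a total of 1000000) in TNF- B cells against 269 CPM in TNF- members, with a UMI in 89.8% and 91.2% of them. A barcode sequence occurred in both matrices 21 times, and 0 of these were members of both.

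The depth of the members was alike in both libraries. Members had 3358 to 53593 UMIs in the TNF- lung and 1628 to 34301 in the TNF+ lung, with median gene numbers of 2904 and 3076. Mitochondrial UMIs had medians of 2.85% and 3.05%. The Cd3 threshold rarely decided membership, since 1 and 7 members held exactly 2 Cd3 UMIs and 2 and 15 otherwise alike barcodes held 1. The Cd4 threshold decided it often. Exactly 1 Cd4 UMI was found in 119 and 124 members, while 162 and 188 otherwise alike T cells had none. Csf1r UMIs excluded 10 barcodes in the TNF- and 118 in the TNF+ lung. No member held under 1000 UMIs.

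Of the markers given for these cells, Cd3e and Cd4 were set by the selection. Lef1 and Tcf7, transcription factors of naive T cells, had a UMI in 86.4% and 91.5% of TNF- members and in 62.6% and 79.7% of TNF+ members. In B cells the shares were 9.15% and 6.69% for Lef1, and 2.98% and 2.23% for Tcf7. Il7r, the interleukin-7 receptor chain, had a UMI in 81.6% and 80.0% of members and in 1.36% and 3.38% of B cells. All 3 shares were well above those of B cells in both libraries. The CD8 list had 0 genes left to compare, as the selection required.

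Members made up 30.6% of T cells in the TNF- lung (95% exact interval 27.6 to 33.8%) and 36% in the TNF+ lung (33.1 to 39.0%). The difference was 5.38 percentage points (Newcombe interval 1.18 to 9.53). CD8 T cells were 36.1% and 21.7% of T cells, a difference of -14.4 points (-18.4 to -10.4). Foxp3 cells, the regulatory T cells that the selection left out, were 30 and 80 cells, or 3.38% and 7.48% of T cells. As a share of all kept barcodes the members differed by 0.213 points (3.26% and 3.47%, interval -0.305 to 0.720). The higher member share held among T cells only. It also rested on the members that held an Il2ra or Ikzf2 UMI. Without these, 216 and 212 members remained, still taken over all 888 and 1069 T cells, and the difference turned to -4.49 points. Whether the members with such a UMI were regulatory T cells was not tested.

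**Figure D1:**
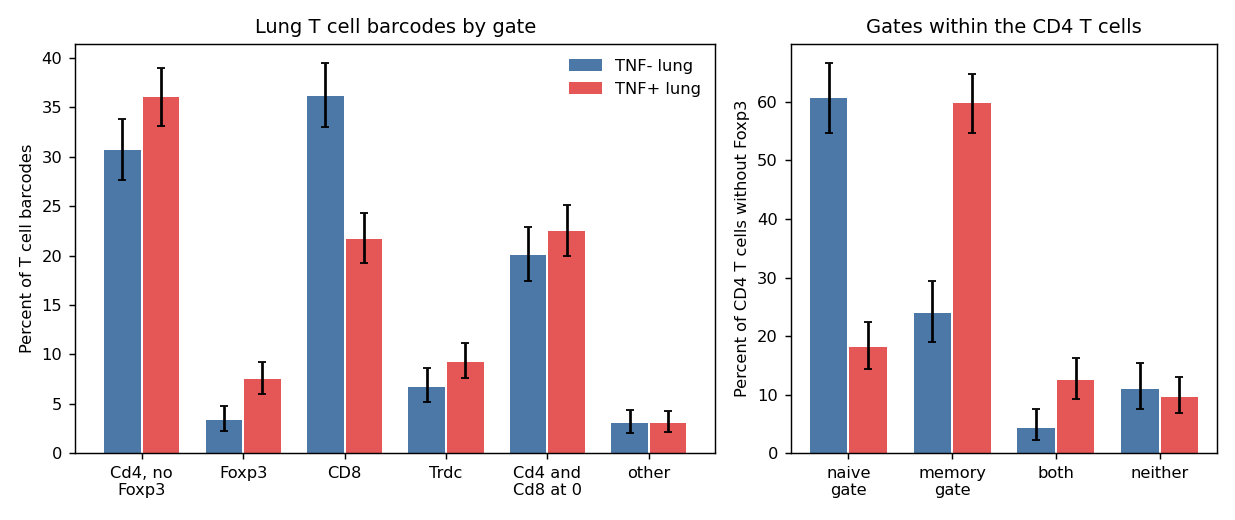
Bars show 6 T cell groups as a percentage of all T cells in the TNF- and the TNF+ lung library (1 library each), with 95% exact binomial intervals that cover counting error only. Members were 30.6% and 36% of T cells, CD8 T cells 36.1% and 21.7%, and Foxp3 cells 3.38% and 7.48%. The right panel gives the members by UMIs of Ccr7 and S100a4, with Ccr7 and no S100a4 (naive gate) in 60.7% and 18.2%, and the reverse (memory gate) in 23.9% and 59.7%.

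Most TNF- members carried a naive pattern and most TNF+ members did not. A naive gate was set at 1 or more UMIs of Ccr7 and no S100a4, and a memory gate at the reverse, S100a4 without Ccr7. The naive gate held 165 of 272 TNF- members (60.7%, 54.6 to 66.5%) and 70 of 385 TNF+ members (18.2%, 14.5 to 22.4%). That was a difference of -42.5 points (-49.1 to -35.2). The memory gate held 65 members (23.9%) and 230 members (59.7%), a difference of 35.8 points (28.5 to 42.5). Members with both signals were 4.41% and 12.5%, and 30 and 37 members had neither. With each member thinned to 2000 UMIs, the naive gate held 31.2% and 10.2%, and the memory gate 22.1% and 56.0%. S100a4 is also abundant in macrophages, and 5.69% and 20.7% of B cells held an S100a4 UMI, against 28.3% and 72.2% of members. The part of RNA from macrophages in the gates was not tested.

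UMIs of whole gene lists were also counted per cell. Over 20 naive and recirculation genes, the median member had 111 UMIs per 10000 in the TNF- lung and 33.1 in the TNF+ lung. Over 22 effector and memory genes the medians were 16.3 and 93.4. The members of both libraries overlapped, with middle ranges (quartiles) for the effector list of 9.22 to 98.0 and 35.2 to 153. More effector than naive UMIs were found in 82 TNF- members (30.1%) and 276 TNF+ members (71.7%).

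**Figure D2:**
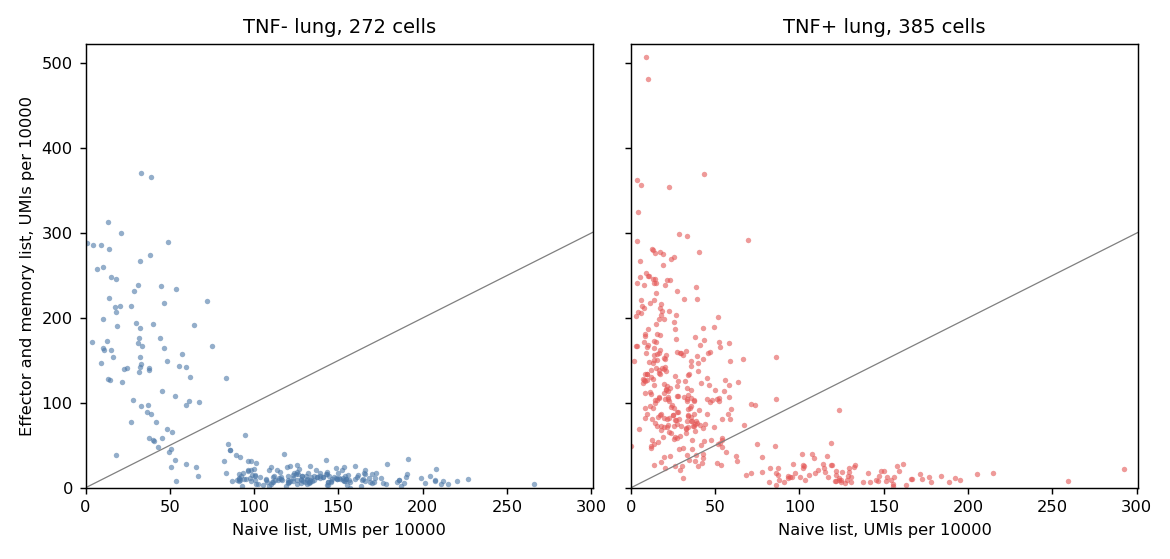
Each point is 1 member, with UMIs of the naive and recirculation list per 10000 UMIs across and UMIs of the effector and memory list per 10000 UMIs upward, for the TNF- and the TNF+ lung, and the line marks equal values. Both libraries have a flat arm of naive members and a steep arm of effector members, with 82 of 272 TNF- members and 276 of 385 TNF+ members above the line.

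Across the genome, 11720 genes had 20 or more UMIs over the members of both libraries. Of these, 569 (4.85%) were 2-fold or more higher in TNF+ than in TNF- members and 1256 (10.7%) were 2-fold or more lower. The split depended on a few mixed barcodes. It was 659 higher and 712 lower without 14 TNF- and 11 TNF+ members that held many UMIs of other tissues. These shares are the background for the gene lists below. Levels are CPM, the counts scaled to 1000000, of the members' summed UMIs, and a log2 ratio is TNF+ over TNF-. Over all 11720 genes its median was 0.01, and its interval lay above 0 for 2042 genes (17.4%) and below 0 for 2324 (19.8%).

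The naive and recirculation genes were lower in TNF+ members. Of 20 genes, 10 were 2-fold or more lower and 0 were 2-fold or more higher, and the list's median log2 ratio was -1.0. Ccr7, on chromosome 11 (GRCm38, 99144196 to 99155077), had 231 CPM in TNF- against 75.2 CPM in TNF+ members, a log2 ratio of -1.62 (-1.82 to -1.42). Ccr7 is also a B cell gene, where its log2 ratio was -0.61. Among the transcription factors that keep T cells quiescent, Lef1 was at 1291 and 668 CPM (-0.95), Satb1 at 967 and 416 CPM (-1.22) and Klf2 at 1003 and 467 CPM (-1.10). Tcf7 differed less, with 544 and 385 CPM (-0.50, -0.60 to -0.40). The list did not move as one. Il7r was at 515 and 564 CPM (0.13, 0.04 to 0.23), and Foxo1, which drives Klf2, at a log2 ratio of -0.24.

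Within the gates the naive genes separated into groups. Inside the naive gate Lef1 had 1805 CPM in TNF- against 1812 CPM in TNF+ members (0.01, -0.09 to 0.10), and the median of 19 list genes was -0.16. Inside the memory gate the median of 18 genes was -0.09. Klf2 and its relative Klf3 were an exception. Their log2 ratios in the memory gate were -1.46 (-1.63 to -1.29) and -1.63 (-1.96 to -1.30), and a Klf2 UMI was found in 69.2% of TNF- and 50% of TNF+ memory-gate members. S1pr1, the receptor that lets lymphocytes leave tissue, was at -0.86 there (-1.15 to -0.56). These 3 genes were also lower in B cells, with log2 ratios of -0.95, -1.25 and -0.81.

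The effector and memory genes were higher in TNF+ members. All 22 lay above 0, with 17 intervals above 0, and 6 were 2-fold or more higher. The median log2 ratio was 0.70. Cxcr6, a chemokine receptor of T cells in peripheral tissue (chromosome 9, 123806475 to 123811760), had 88.2 CPM in TNF- against 282 CPM in TNF+ members, a log2 ratio of 1.68 (1.48 to 1.88). A Cxcr6 UMI was found in 18.8% and 52.2% of members and in 0.814% and 2.77% of B cells. Cxcr3, another such receptor, was at 50.7 and 127 CPM (1.32), and Cd44, the adhesion receptor that marks experienced T cells, at 161 and 332 CPM (1.05). Tnfrsf1b, the receptor TNFR2, was at 29.7 and 77.9 CPM (1.39, 1.04 to 1.75). S100a4, on chromosome 3 (90603771 to 90606045), was at 617 and 1250 CPM (1.02), with the gain in B cells noted above.

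Inside the memory gate most effector genes were not higher. Their median log2 ratio was -0.18, and 14 of 22 intervals lay below 0, against 1462 of 9885 genes (14.8%) below and 10.1% above over all genes of this gate. Il2rb was at -1.05 (-1.31 to -0.78), Lgals1 at -0.81 and S100a4 at -0.10. Intervals above 0 were left for 4 genes, namely Tnfrsf1b at 0.89 (0.42 to 1.38), Cxcr6 at 0.57 (0.36 to 0.79), Cd44 at 0.41 (0.22 to 0.61) and Cxcr3 at 0.32 (0.01 to 0.65). S100a4 and Ccr7 belong to these lists and define the gates, which narrows the difference of the lists within a gate by construction. The memory-gate members of the libraries were also unlike in other genes. Proliferation genes summed to 5274 CPM in TNF- and 1403 CPM in TNF+, and endothelium genes to 1387 and 239 CPM. Macrophage genes summed to 400 and 2602 CPM there, and epithelium genes to 672 and 3373 CPM. The part of these differences in the memory-gate ratios was not tested. In this gate 567 of 9885 genes (5.74%) were 2-fold or more higher and 772 (7.81%) were 2-fold or more lower. Inside the naive gate the effector median was 0.09 over 17 genes. CD8 T cells, in which 278 of 11419 genes (2.43%) were 2-fold or more higher and 1116 (9.77%) were 2-fold or more lower, had a naive median of -0.42 and an effector median of 0.16.

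**Figure D3:**
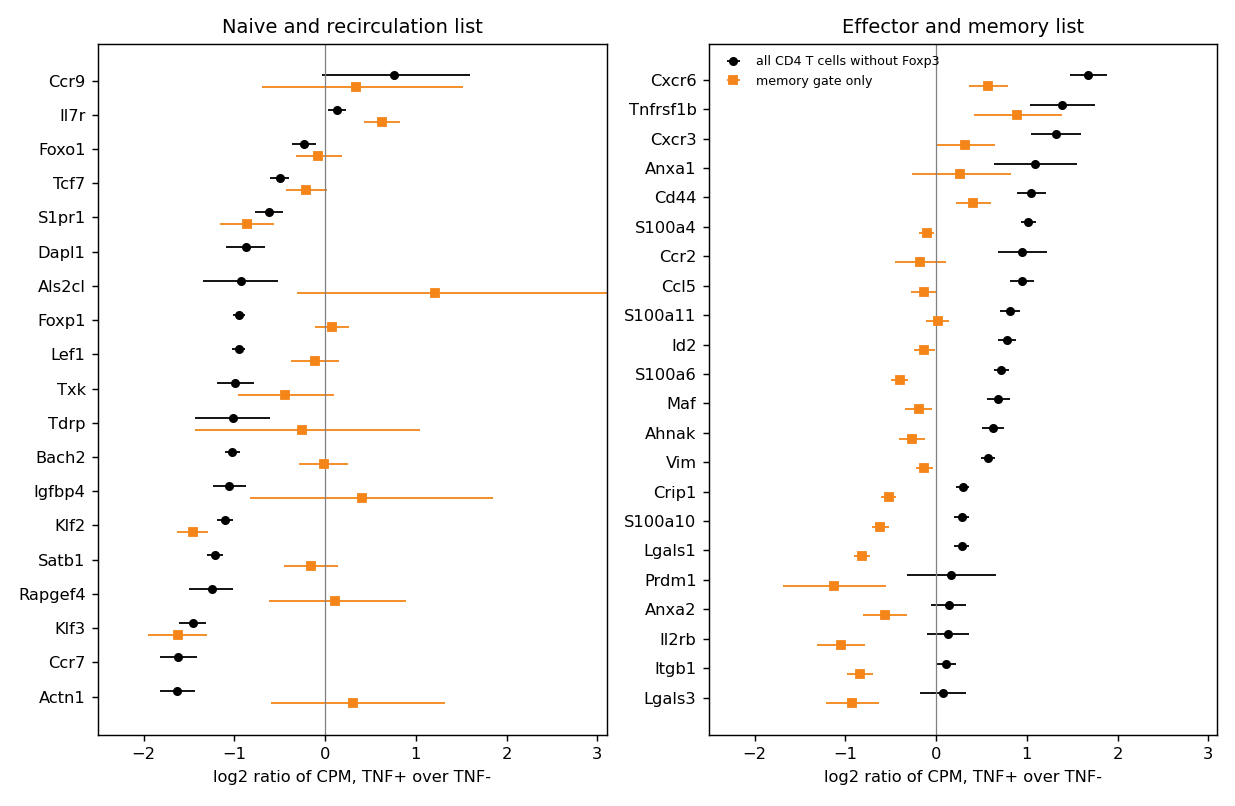
Log2 ratios (TNF+ over TNF- lung, 1 library each) of genes of the naive and recirculation list and of the effector and memory list, with 95% intervals of counting error, for all members and within the memory gate. Over all members the naive median was -1.0 and the effector median 0.70, and within the memory gate they were -0.09 and -0.18.

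Ligands of the TNF family were higher in TNF+ members. Of 10 ligand genes 9 had enough UMIs, and 6 of the 9 were 2-fold or more higher, with a median log2 ratio of 1.21. Tnf, Lta (lymphotoxin alpha) and Ltb (lymphotoxin beta) lie within 10.9 kb of chromosome 17, and all 3 were higher. Their promoters are shown because these neighbours differed in the same direction. Each is the 250 bases before the start of the gene in RefSeq (GRCm38.p6), 5′ to 3′ on the gene's strand, at chr17:35202008-35202257 on the minus strand for Tnf, chr17:35205352-35205601 on the minus strand for Lta and chr17:35194257-35194506 on the plus strand for Ltb. Capitals mark matches, on either strand, to an NF-kB motif (GGG, any 2 bases, then TTTCC) or to the NFAT core GGAAAA.
Tnf: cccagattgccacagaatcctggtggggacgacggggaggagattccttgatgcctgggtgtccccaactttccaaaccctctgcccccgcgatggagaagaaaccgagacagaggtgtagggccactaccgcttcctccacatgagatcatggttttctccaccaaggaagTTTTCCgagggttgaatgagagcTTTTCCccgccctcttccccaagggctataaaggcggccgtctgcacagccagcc
Lta: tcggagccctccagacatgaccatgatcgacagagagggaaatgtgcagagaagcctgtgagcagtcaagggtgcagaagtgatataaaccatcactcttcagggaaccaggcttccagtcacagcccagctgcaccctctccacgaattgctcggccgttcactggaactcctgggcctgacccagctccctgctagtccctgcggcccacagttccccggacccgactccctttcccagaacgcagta
Ltb: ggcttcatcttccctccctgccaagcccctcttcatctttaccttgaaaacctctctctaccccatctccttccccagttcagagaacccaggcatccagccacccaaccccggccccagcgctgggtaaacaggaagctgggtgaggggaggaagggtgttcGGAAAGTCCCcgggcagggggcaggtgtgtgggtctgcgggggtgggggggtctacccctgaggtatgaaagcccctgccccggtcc
The Tnf window held 2 NFAT core matches, which began 78 and 55 bases before the start. The Ltb window held 1 NF-kB match 87 bases before the start, and the Lta window held neither. Among 32851 promoter windows of 250 bases, 1.41% held the NF-kB motif and 20.4% the NFAT core. Of the 10 ligand genes 8 had a window, of which 1 held the NF-kB motif and 2 the NFAT core. The matches describe letters and show no binding.

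Tnf (35199381 to 35202007) had 83.3 CPM in TNF- against 185 CPM in TNF+ members, a log2 ratio of 1.16 (0.94 to 1.37). A Tnf UMI was found in 36.8% and 65.2% of members, and in 14.7% and 29.7% after thinning to 2000 UMIs. B cells had 8.95% and 26.5%, with a log2 ratio of 1.47, so B cells showed the difference too. Whether reads of the human transgene were counted as Tnf was not tested. Lta was at 9.10 and 21.8 CPM (1.26, 0.61 to 1.96), with 1.36 in B cells. Ltb was at 495 and 813 CPM (0.72, 0.62 to 0.81) and had a UMI in 92.3% and 95.8% of members. It differed alike in the naive gate (0.80), in the memory gate (0.77), in CD8 T cells (0.67) and in B cells (0.54).

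Cd40lg and Tnfsf11 were nearly absent from B cells. Cd40lg encodes CD40 ligand, the signal of helper cells to B cells and macrophages (chromosome X, 57212143 to 57224042). Its level was 96.2 CPM in TNF- members and 223 CPM in TNF+ members (1.21, 1.01 to 1.41), against 0.199 and 0.219 CPM in B cells. A Cd40lg UMI was found in 44.5% and 69.9% of members. Tnfsf11 encodes RANKL, which drives osteoclast formation (chromosome 14, 78277445 to 78308043). It was at 28.3 and 84.2 CPM (1.57, 1.21 to 1.94), with a UMI in 13.2% and 36.4% of members and in 0.203% and 0.384% of B cells. Tnfsf14 (LIGHT) was at 7.0 and 18.4 CPM (1.40), Fasl at 9.45 and 24.5 CPM (1.37) and Tnfsf8 (CD30 ligand) at 90.6 and 174 CPM (0.94). Tnfsf10 (TRAIL) went the other way, with 37.8 and 31.0 CPM (-0.28, -0.67 to 0.11), and Tnfsf4 had 0 UMIs in the members of both libraries.

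The ligands differed within the gates as well, most of them by less. In the naive gate Tnf had a UMI in 24.8% of TNF- and 40% of TNF+ members, a difference of 15.2 points (2.33 to 28.3). Cd40lg had 40% and 58.6% there (18.6 points, 4.62 to 31.5). In the memory gate Cd40lg had 58.5% and 73.5% (15 points, 2.30 to 28.2), and its level was at 0.82 on the log2 scale (0.54 to 1.12). Tnf had a UMI in 66.2% and 75.2% of memory-gate members (9.06 points, -2.85 to 22.2), with a log2 ratio of 0.56 (0.27 to 0.86). Tnfsf11 was at 0.57 (0.15 to 1.01), with a UMI in 35.4% and 48.3% (12.9 points, -0.837 to 25.2). The median of the 9 ligands was 0.57 in the memory gate and that of 6 ligands 0.84 in the naive gate. CD8 T cells had a ligand median of 1.36, with Cd40lg at 2.71 and 11.7 CPM.

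**Figure D4:**
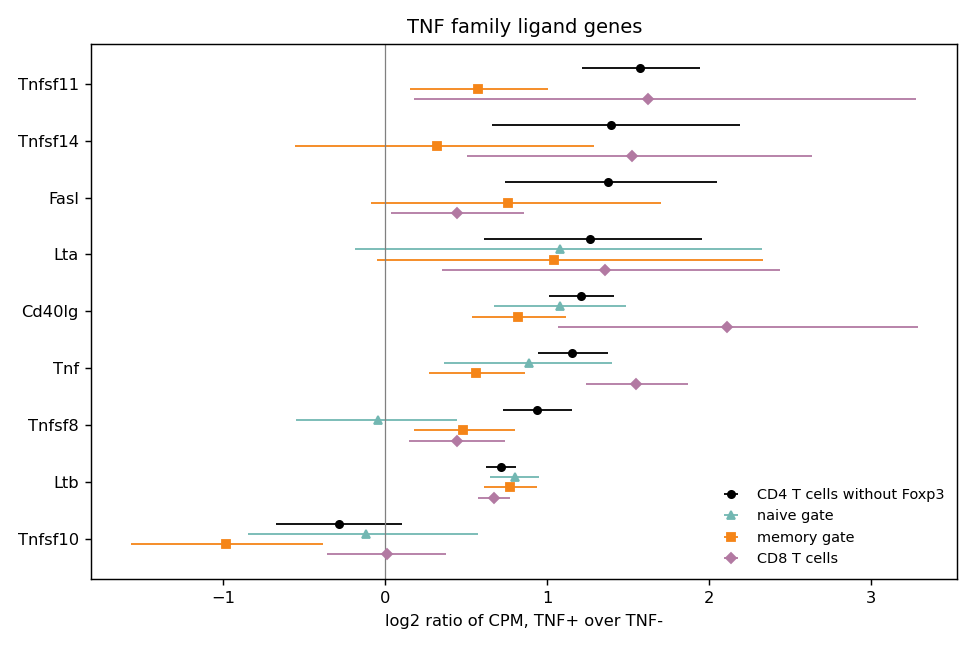
Log2 ratios (TNF+ over TNF- lung, 1 library each) of the TNF family ligand genes in all members, the naive gate, the memory gate and CD8 T cells, with 95% intervals of counting error and only where 20 or more UMIs were counted. Ltb sits at nearly the same ratio in all 4 groups (0.67 to 0.80), while Tnfsf11, Cd40lg and Tnf sit further right over all members than in the memory gate.

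Receptors of the TNF family had no common direction. The median of 8 receptor genes was -0.19, with Tnfrsf1b 2-fold higher and Tnfrsf26 2-fold lower (56.7 and 24.5 CPM, -1.21). Tnfrsf1a, the receptor TNFR1, was at 22.7 and 19.2 CPM (-0.24, -0.75 to 0.26). Genes of NF-kB and its feedback, which TNF receptors switch on in many cells, were slightly higher. None of the 21 passed 2-fold, 14 intervals lay above 0 and 3 below (17.4% and 19.8% over all genes), and the median was 0.37. Bcl3 (0.87), Nfkbie (0.83), Traf3 (0.83) and Relb (0.68) led the list. Nfkbia, an early target of the pathway, was at 376 and 403 CPM (0.10, -0.02 to 0.21), and Icam1 was lower (-0.60, -0.89 to -0.30). The list's median was 0.26 in the memory gate and 0.28 in CD8 T cells.

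Genes of Th1 cells were higher in TNF+ members, with 4 of 12 at 2-fold or more and a median log2 ratio of 0.86. Tbx21, the master transcription factor of this fate (chromosome 11, 97098071 to 97115331), was at 38.5 and 108 CPM (1.49, 1.18 to 1.80). It had a UMI in 15.4% and 31.4% of members and in 2.51% and 3.46% of B cells. Ifng, the Th1 cytokine, was at 18.9 and 42.6 CPM (1.17, 0.72 to 1.65) and Il18r1, a receptor that amplifies it, at 197 and 412 CPM (1.06). UMIs of both Tbx21 and Ifng were in 6.99% and 13.0% of members. Inside the memory gate the median of the list was 0.02, with 3 intervals above 0 and 3 below. There Tbx21 stood at 0.18 (-0.17 to 0.53) and its share of cells was 49.2% and 39.1%, a difference of -10.1 points with an interval of -23.4 to 3.31.

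Genes of Th17 cells had the highest median of the helper lists, 1.39, and 8 of 10 were 2-fold or more higher. All 10 intervals lay above 0. Il23r was at 15.7 and 57.3 CPM (1.86), Il1r1 at 18.2 and 61.8 CPM (1.76) and Ccr6 at 23.1 and 68.6 CPM (1.57). Ccr6 is also a B cell gene, with a UMI in 21.8% and 36% of B cells. The cytokine Il17a gave 18 and 116 UMIs (2.28), yet cells with a UMI of Il17a or Il17f were 5.51% and 4.68% of members. One TNF+ member held 26.7% of the Il17a UMIs. Without the members that held Il2ra or Ikzf2 UMIs, the log2 ratio of Il17a was -3.62. That value rests on few UMIs, at most 18 in the TNF- library, and is given without an interval. In the memory gate the list's median was 0.32, with Il1r1 at 1.18 (0.65 to 1.76). A UMI of Il23r was in 13.8% and 22.6% of cells there (8.76 points, -2.77 to 17.4).

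Of 12 Th2 genes 7 had enough UMIs and 4 were 2-fold or more higher, with a median of 1.17. One of the 4 was Plac8 (8 and 102 UMIs, 3.26), a gene of other cells here, with 26.8 CPM in TNF+ members against 223 CPM in B cells and 787 CPM in Csf1r+ cells. Gata3, the transcription factor of this fate, was at 160 and 189 CPM (0.24, 0.07 to 0.41), while the receptors Ccr4 (26.6 and 95.5 CPM, 1.84) and Ccr8 (4 and 38 UMIs, 2.84) were higher. A UMI of Il4, Il5 or Il13 was in 2 and 7 members. Ccr4 stayed higher in the memory gate (0.89, 0.48 to 1.31), where its share of cells was 33.8% and 36.1%. Of 12 Tfh genes 10 were compared, with 1 higher, 1 lower and a median of -0.08. Cxcr5, the receptor that leads these cells to follicles, was at 36 and 17.1 CPM (-1.08, -1.55 to -0.61), and 55.1% and 55.9% of B cells held a UMI of it. Cxcr5 and Pdcd1 occurred together in 1.84% and 3.12% of members.

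Pdcd1, the inhibitory receptor PD-1 (chromosome 1, 94038305 to 94052553), was the higher gene of the Tfh list and led the checkpoint list. It was at 7.35 and 34.5 CPM (2.23, 1.56 to 2.97), with a UMI in 6.62% and 17.7% of members and in 0% and 0.231% of B cells. In the memory gate it was at 1.12 (0.33 to 2.01), where its share of cells was 20% and 21.3%. It was at 2.18 in Foxp3 cells (0.87 to 3.86) and at -0.37 in CD8 T cells. The costimulatory receptor OX40 (Tnfrsf4) was at 15 and 50.5 CPM (1.75), with 2.0 in the naive gate (0.65 to 3.46) and 0.52 in the memory gate (-0.05 to 1.14). Ctla4 (0.80) and Icos (0.63) differed less, and Cd28 was at 403 and 432 CPM (0.10). Lag3 gave 21 and 10 UMIs (-1.48). Of the 13 checkpoint genes 2 were 2-fold or more higher and 1 lower, with a median of 0.50.

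Genes of regulatory T cells were mixed although Foxp3 was at 0 by selection. Of 13 genes 3 were 2-fold or more higher and 1 lower, and the median was 0.03. Il2ra was at 13.3 and 30.2 CPM (1.19) and Ikzf2 at 179 and 277 CPM (0.63), with a UMI of Ikzf2 in 17.3% and 36.9% of members. UMIs of both were in 4.04% and 8.31%. A regulatory T cell whose Foxp3 was missed would count as a member, and its share cannot be told apart from Foxp3-negative cells here. Itgb8, an integrin that activates TGF-beta, gave 7 and 57 UMIs (2.61), with 24.6% of the TNF+ UMIs in 1 member. Il10 gave 18 and 6 UMIs (-2.0). In the memory gate the median of 11 genes was -0.05. Ikzf2 was at -0.45 there (-0.63 to -0.27) with a UMI in 38.5% and 46.1% of cells, and over all members 1 TNF- member held 17.2% of its UMIs.

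Among 11 genes of tissue residency 4 were 2-fold or more higher, with a median of 0.88. P2rx7, a receptor for extracellular ATP that resident T cells express, was at 34.6 and 130 CPM (1.91, 1.59 to 2.23), in 16.9% and 47.0% of members. It was higher in the naive gate (1.25), the memory gate (1.18) and CD8 T cells (1.70), and not in B cells (-0.61). Rgs1, which dampens chemokine signals, was at 69.6 and 245 CPM (1.82), and in B cells, with a UMI in 1.02% and 4.61% of cells, at 2.71. The integrin genes Itgae (0.16, -0.37 to 0.70) and Itga1 (-0.45, -0.74 to -0.17) did not share this direction, and Cd69 was at 0.46. UMIs of both Cxcr6 and Itgae were in 5.15% and 7.01% of members.

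Chemokine receptors differed in both directions. Of 17 compared, 5 were 2-fold or more higher (Ccr4, Ccr6, Ccr8, Cxcr3 and Cxcr6) and 3 were 2-fold or more lower (Ccr7, Cxcr5 and Ccr10), with a median of 0.81. Ccr10 rested on 25 and 6 UMIs. S1pr1, a receptor of lymphocyte exit, was lower by less than 2-fold (-0.62). Of 17 cytokine receptors 3 were 2-fold or more higher and 0 lower, with a median of 0.13. Ifngr1, which senses interferon gamma, was at 186 and 442 CPM (1.25, 1.10 to 1.39), and it was higher in the memory gate (0.86) and not in B cells (-0.35). Its partner Ifngr2 was at 50.4 and 36.6 CPM (-0.46). Il4ra (-0.85) and Il6ra (-0.63) were lower.

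Cytotoxic genes were scarce in the members. Of 10 compared, 5 were 2-fold or more higher and 1 lower, with a median of 1.10. Gzmk, a granzyme of memory T cells, gave 2 and 69 UMIs (4.70, 2.79 to 7.77) in 0.735% and 5.71% of members, against 0.407% and 0.307% of B cells. Gzma gave 14 and 85 UMIs (2.19), of which 80% of the TNF+ UMIs came from 1 member. Prf1, the pore protein perforin, gave 36 and 22 UMIs (-1.12), while Nkg7 was at 112 and 198 CPM (0.82). Gzma alone of the natural killer cell list could be compared. The NKT and innate-like list had 5 genes to compare, with 1 lower and a median of 0.13. That gene was Zbtb16 at 24.1 and 8.42 CPM (-1.52), with a UMI in 13 TNF- and 12 TNF+ members. Without the mixed barcodes its log2 ratio was 3.19, which rests on few TNF- UMIs and is given without an interval. Of 2 gamma delta T cell genes Tcrg-C1 was higher (2 and 35 UMIs, 3.72), and the median was 2.34.

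Genes of signalling through the T cell receptor were slightly higher. None of 25 passed 2-fold, 16 intervals lay above 0 and 2 below, and the median was 0.28. Nfatc2 (0.79), Ptpn22 (0.78) and Nfatc1 (0.71) led, and Prkcq (-0.54) was lowest. Immediate early and dissociation genes had 1 of 27 higher, 2 lower and a median of -0.12. Fosb (-1.14), Klf4 (-1.21) and Jun (-0.68) were lower, and in B cells they were at -0.89, -1.60 and -0.77. Interferon stimulated genes had 1 of 38 higher, 1 lower and a median of -0.06. Isg15, a standard member of that list, was at 56.3 and 48.7 CPM (-0.21).

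Proliferation genes were lower in the sum and this rested on few cells. Of 20 genes 12 were 2-fold or more lower, with a median of -1.51. Stmn1 was at 178 and 42.6 CPM (-2.06), Top2a at 101 and 38.7 CPM (-1.39) and Mki67, the classic marker of cycling cells, at 75.6 and 30.2 CPM (-1.32). Yet a Mki67 UMI was found in 6.99% of TNF- and 12.5% of TNF+ members, against 3.19% and 5.07% of B cells. Members with 40 or more UMIs of the list per 10000 numbered 13 in the TNF- lung (4.78%, 2.57 to 8.03%) and 8 in the TNF+ lung (2.08%, 0.901 to 4.05%). They held 61.0% and 24.1% of the list's UMIs. Under the cell filter of the study, which drops barcodes with over 5000 genes, the median was -0.15 and Mki67 was at 1.34. After thinning to 2000 UMIs the median was -0.17. The gates went opposite ways. In the memory gate 16 of 20 genes were 2-fold or more lower (median -3.08), while in the naive gate 7 of 12 compared were 2-fold or more higher and 0 lower (median 1.06), against 2.08% and 10.2% of 9113 genes there.

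Of 14 complement genes, the subject of the study, 8 were 2-fold or more higher and 3 lower, with a median of 1.88. C1qa, a subunit of the first component made by macrophages, had a UMI in 1.10% of TNF- and 34.8% of TNF+ members, and in 0.949% and 35.1% of B cells. C3, the central component, had a UMI in 2.21% and 23.6% of members and in 7.80% and 23.2% of B cells. The shares of these 2 genes were close to or below those in B cells. The levels of C1qa differed alike, with log2 ratios of 5.68 in members and 5.50 in B cells. Those of C3 did not, with 2.80 and 35.2 CPM in members against 62.7 and 56.0 CPM in B cells. The source of this RNA was not tested. Cd55, a regulator that T cells make themselves, was at 57.7 and 33.9 CPM (-0.77).

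Markers of other cells differed between the members of the libraries. The summed level of 15 macrophage genes was 704 CPM in TNF- against 2308 CPM in TNF+ members, and 9 of 14 compared were 2-fold or more higher (median 1.90). The 11 B cell genes summed to 238 and 1172 CPM (3 of 7 higher, median 0.50). Jchain, an antibody chain of plasma cells, had a UMI in 6.62% and 75.8% of members and in 8.14% and 75.7% of B cells. Neutrophil genes summed to 31.5 and 104 CPM (3 of 4 higher, median 1.77), natural killer cell genes to 9.10 and 29.7 CPM and gamma delta genes to 6.65 and 24.7 CPM. Epithelium genes summed to 690 and 2307 CPM (5 of 8 higher, median 2.22). In B cells these genes did not go the same way, with Sftpc at -1.43 and Sftpa1 at -1.01. Endothelium genes summed to 1178 and 426 CPM (6 of 7 lower, median -2.37), mesenchyme genes to 269 and 41.8 CPM (6 of 6 lower, median -2.84), and red cell and platelet genes to 176 and 106 CPM (2 of 6 lower, median -0.83).

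Most of the genes with the largest ratios were genes of such other cells. A rule on the size of the ratio was applied to 7070 genes. These had 100 or more UMIs over both libraries and a UMI in at least 5% of members of the higher library. Of the genes not set aside, 12 were named in each direction. Another 22 above the lowest of the higher genes were set aside because their CPM was at least 4 times higher in Csf1r+ cells or B cells, such as Cxcl13 (0 and 342 UMIs), Ccl8 and the C1q genes, and 1 was set aside among the lower genes. The higher genes held the surfactant genes Sftpa1 (3.49), Sftpd (3.46), Sftpc (2.45) and Sftpb (1.99), the other alveolar genes Lamp3 (2.90) and Slc34a2 (2.66), and Wfdc2 (2.37). One TNF+ member held 67.1% of the Sftpc UMIs. The lower genes were genes of endothelium and stroma. Of these Plpp3 (-6.58), Meis1 (-6.43), Fmo2 (-6.14), Prickle2 (-5.62), Tspan7 (-5.61), Prkg1 (-5.59), Ptprd (-5.55), Thbd (-4.97), Plvap (-4.67), Kdr (-4.39) and Ptprb (-4.37) had a value, and Cyp4b1 gave 126 and 0 UMIs. Against a floor of 3 UMIs its log2 ratio was at or below -5.80. For each of these lower genes, 1 TNF- member held 14.9% (Ptprb) to 89.7% (Plpp3) of the TNF- UMIs. All of them were also lower in B cells, from -1.96 (Plpp3) to -5.70 (Fmo2).

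Mixed barcodes were counted after the values were seen. Endothelium and mesenchyme genes reached 30 UMIs per 10000 in 13 TNF- and 2 TNF+ members. Epithelium genes reached 50 in 0 and 3, and macrophage genes in 1 and 7. Without these barcodes Sftpb was at -0.30, Slc34a2 at 0.26 and Prkg1 at -0.75. Asb2 (2.60), Krt83 (2.37), Pdcd1 (2.23), Arnt2 (2.08) and Podnl1 (2.03), the remaining higher genes, were spread over the members, with a UMI in 17.7 to 38.2% of TNF+ members. Their part in doublets or in tissue debris was not tested.

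A second rule, added after the values were seen, asked for genes spread over many members. It also asked for a level above B cells and Csf1r+ cells in the library where the gene was higher. At most 10% of a gene's UMIs could come from 1 member in either library. The rule left 3714 genes, of which 55 were 2-fold or more higher and 70 lower. Asb2, Krt83, Arnt2 and Podnl1 fell out, since 1 TNF- member held 10.2% (Podnl1) to 25% (Krt83) of their UMIs. The higher genes began with Pdcd1, Cish, P2rx7, Rnf43 and Il2. Cish, a feedback inhibitor of cytokine signalling, was at 23.8 and 92.8 CPM (1.96, 1.59 to 2.36), with a UMI in 14.0% and 42.3% of members. Il2, the T cell growth factor, gave 20 and 95 UMIs (1.84, 1.13 to 2.61). In CD8 T cells it gave 3 and 19 UMIs (2.97, 1.20 to 5.37), and the 2 intervals overlapped. Adam19, a membrane protease, was at 81.2 and 262 CPM (1.69) and, in the TNF- library, below the 125 CPM of B cells, and Slamf1 at 42.0 and 110 CPM (1.40). In CD8 T cells, which the rule did not use, the median of the 55 genes was 0.49, against -0.08 over all genes.

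Among the lower genes of this rule Polr2a, the largest subunit of RNA polymerase II, was at 660 and 205 CPM (-1.69, -1.81 to -1.57), and it had a UMI in 97.8% of TNF- and 72.5% of TNF+ members. It was at -1.27 in CD8 T cells and -1.21 in B cells. Tob1, which restrains T cell proliferation, was at 146 and 46.0 CPM (-1.66), Hexim1, an inhibitor of transcription elongation, at 143 and 45.2 CPM (-1.66) and Slc7a5, an amino acid transporter, at 71.7 and 24.7 CPM (-1.54). In CD8 T cells the median of the 70 genes was -0.89. In B cells it was -0.94, while the 55 higher genes had a B cell median of -0.07. Tob1, Hexim1 and Slc7a5 were at -1.75, -1.42 and -1.10 in B cells. The rule used the level in B cells, so these B cell values are a description. AY036118, a gene model that shares sequence with ribosomal RNA, was at 171 and 574 CPM (1.75), with 1.14 in B cells, and is uncertain for this reason.

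**Figure D5:**
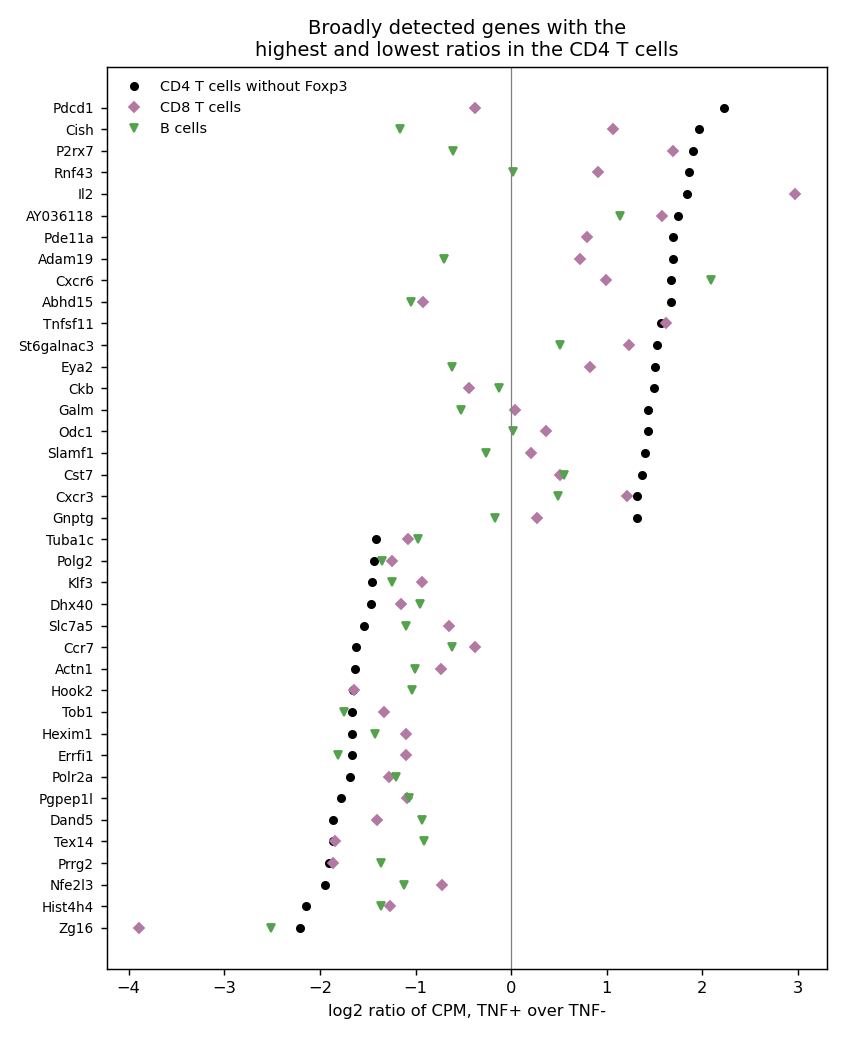
Log2 ratios (TNF+ over TNF- lung, 1 library each) of 20 higher and 19 lower genes of the second rule, in members, CD8 T cells and B cells, with no intervals drawn and no B cell point where too few UMIs were counted. Il2 is at 1.84 in members and at 2.97 in CD8 T cells, where it had 3 and 19 UMIs. Polr2a is at -1.69, -1.27 and -1.21 in the 3 groups. Since the rule used the level in B cells, the B cell points are a description.

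Members and CD8 T cells of the same library were set side by side, which needs no comparison between libraries. The genes given here were chosen for a large contrast in both libraries and are a description. Among genes above the CD8 level were genes of helper cells. Ccr4 was 5.62 log2 units higher in members of the TNF- lung and 4.99 in the TNF+ lung, Cd40lg 5.15 and 4.25, Tnfsf11 4.12 and 4.07 and Maf 3.68 and 3.75. Zbtb7b, the transcription factor that sets the CD4 lineage, was at 28.7 CPM in TNF- members and 3.52 CPM in CD8 T cells (3.02), and at 2.85 in the TNF+ lung. Genes of cytotoxic cells stood below, with Ly6c2 at -6.06 and -4.85, Klrc1 at -5.99 and -3.61 and Gzmb at -4.76 and -5.10. Gzma was at 4.90 CPM in TNF- members against 840 CPM in CD8 T cells, and at 22.4 against 234 CPM in the TNF+ lung.

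T cell receptor beta variable segments were seen in few members at this depth. A Trbv UMI was found in 50 TNF- and 102 TNF+ members. Trbv12-2 was in 6 of 50 (12%) and in 21 of 102 (20.6%). A UMI of a segment does not give a clone, and clonal expansion was not tested.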

How the data were processed

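Single-cell suspensions of lung were captured with the 10x Genomics 3′ chemistry, 1 library per genotype from pooled mice. Raw UMI counts for each gene in each barcode were deposited by the authors, not normalized and made with Cell Ranger 7.0.1 and build mm10 per the submitters' processing notes. That version counts intronic reads by default. The synovium was not used here. The members and gene lists were chosen with earlier results of these data known, and the mixed barcodes and the rule for broadly expressed genes were added after the values were seen.

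Members were selected by the UMI thresholds given above, and their counts were summed per library and scaled to CPM. Genes with 20 or more UMIs over both libraries were compared as a log2 ratio, called at 2-fold (1 or -1 on the log2 scale), with a conditional binomial 95% interval. Shares have exact binomial (Clopper-Pearson) intervals and differences of shares Newcombe intervals. With 1 library per group no test was possible, and all intervals cover counting error only, since pooled mice give no spread between animals. Deep cells weigh more in the sums. Doublets were not removed. As an alternative the barcodes with the highest Scrublet scores were removed (0.8% per 1000 barcodes, 586 and 1011 barcodes, with 16 and 8 members among them). The log2 ratio and its interval were tested on simulated counts.

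The naive and memory gates used Ccr7 and S100a4, a choice made after the values were seen. Some genes of the lists are not reported here. Genes were named by 1 rule and from lists. The rule took the 12 highest and 12 lowest log2 ratios among genes with 100 or more UMIs and a UMI in at least 5% of members of the higher library. It left out the genes of the selection, mitochondrial and ribosomal protein genes, gene models and receptor segments, and set aside genes with a CPM at least 4 times higher in the Csf1r+ or B cell gate. The added rule took genes in 10% or more of members and with a CPM above both gates, in the library where the gene was higher. At most 10% of a gene's UMIs could be in 1 member, in each of the libraries. The 31 lists were naive and recirculation, effector and memory, Th1, Th2, Th17, Tfh, checkpoint and costimulation, regulatory T cell, cytotoxic, tissue residency, TNF family ligands, TNF family receptors, NF-kB, cytokine receptors, chemokine receptors, immediate early, interferon stimulated, proliferation, T cell receptor signalling, complement, NKT, macrophage, B cell, neutrophil, NK cell, gamma delta, CD8, epithelium, endothelium, mesenchyme, and red cell and platelet. The alternatives were a stricter gate, other cell filters, removal of doublets, thinning to 2000 UMIs, no Il2ra or Ikzf2 UMI, other scalings and other gene minimums. Python 3.11.15, numpy 2.4.6, scipy 1.17.1, pandas 2.3.3, scanpy 1.11.5, statsmodels 0.14.6 and matplotlib 3.10.9 were used. Promoter sequences came from RefSeq (GRCm38.p6) and gene positions from a GRCm38 annotation.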

Additional observations from a re-analysis of the deposited data

Results flagged for a closer look

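Gzma, Zbtb16 and Cst3 had log2 ratios of opposite sign in the members and in CD8 T cells, and the difference was not tested, since each genotype was 1 library. Gzma was at 2.19 in the members (1.37 to 3.12) and -1.84 in CD8 T cells (-1.96 to -1.72), and 80% of its UMIs in TNF+ members came from 1 cell. Zbtb16 was at -1.52 in the members (-2.17 to -0.90) and 1.16 in CD8 T cells (0.50 to 1.84). Without the members that held genes of other tissues it was at 3.19, from few TNF- UMIs and without an interval. Cst3 was at 1.04 in the members (0.86 to 1.22) and -1.50 in CD8 T cells (-1.67 to -1.34), with 37.2% of its UMIs in TNF+ members in 1 cell.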

How the results depend on the processing

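No paired analysis was possible because each genotype was 1 pooled library, and no replicate could be left out for the same reason. The difference in the member share of T cells (5.38 points) became -4.49 without members that held an Il2ra or Ikzf2 UMI. The naive gate difference (-42.5 points) was -21.1 after thinning to 2000 UMIs. The naive list median was -0.71 without Il2ra or Ikzf2 UMIs. The effector list median (0.70) was 0.47 under the stricter gate, 0.94 without Il2ra or Ikzf2 UMIs and 0.84 with each cell weighted equally. The number of genes past 2-fold (1825) was 772 after thinning, 3465 with a minimum of 5 UMIs and 529 with a minimum of 100. Sftpb reversed to -0.30 without the members that held genes of other tissues, an alternative chosen after seeing the data. Among 203 values of 23 named genes under the alternatives, 131 moved by less than the counting interval, 71 moved further and 1, Sftpb, reversed. The split of genes higher and lower (569 and 1256) was 714 and 716 under the cell filter of the study, 673 and 838 without Scrublet doublets, 445 and 327 after thinning and 659 and 712 without the mixed members. The causes were not tested. The planned removal of members with macrophage, B cell or surfactant UMIs left 39 TNF- and 0 TNF+ members and gave no value.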

Other observations

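The mice of each genotype were pooled before capture, and each genotype was captured as its own library. Differences between individual mice, between captures and between genotypes thus cannot be told apart. The whole lung was dissociated, and cells in vessels were not separated from cells in tissue. Cd4 had a median of 2 UMIs per member, and 162 TNF- and 188 TNF+ T cells that met every other criterion had none. The members are thus T cells in which the Cd4 transcript was caught. Whether the T cells without it were CD4 T cells was not tested. A missed Foxp3 transcript would add regulatory T cells to the members.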
